A study of Sus scrofa with 10 samples.

Results

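The fatty acid synthesis genes were taken as 8 genes given by name, ACLY, ACSS2, ME1, ACACA, FASN, SCD, GPAM and MLXIPL, and each was found under 1 Ensembl identifier among the 25009 genes of the liver expression table. Of the 8, 7 had a mean of at least 1 RPKM (reads per kilobase of gene, scaled to each library's mapped reads, so that levels of different genes can be compared per length) and were tested with the 10931 genes that reached this level. ME1 lay below it and is described from its values. The samples were liver RNA of male pigs collected at slaughter, 5 of the high and 5 of the low phenotype for growth and fatness. All carry the age 175, for which the labels name no unit. Neither breed nor feeding is stated, nor that the samples are separate animals, so p-values cover only the spread between the samples, which may be technical.

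Fatty acid synthesis turns cytosolic acetyl-CoA into palmitate. Acetyl-CoA comes from citrate through ACLY or from acetate through ACSS2, ACACA converts it to malonyl-CoA, FASN builds the chain with NADPH that ME1 helps to supply, SCD adds a double bond, and GPAM starts the joining of acyl chains to glycerol. MLXIPL, also known as ChREBP, is a transcription factor that switches on several of these genes when glucose is plentiful. In pigs adipose tissue, rather than liver, is the main site of fatty acid synthesis.

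The libraries had RPKM sums of 539327 to 567220 and 16195 to 16802 genes above 0. Their absolute depth is unknown, and their relative depth, read from the steps of the lowest values, ran over a 1.41-fold range. Of the 12 hepatocyte markers listed, 11 were matched and all 11 were above the level for testing, with a summed level of 60368 to 79693 RPKM in high and 52129 to 80520 RPKM in low, so hepatocyte transcripts were abundant in every library. Of the 12 adipocyte markers 6 were matched, with sums of 33.1 to 37.5 RPKM in high and 26.9 to 49.8 RPKM in low. Most of these sums came from CIDEC, at 13.2 to 20.4 RPKM in high and 14.0 to 24.3 RPKM in low, and CFD, at 9.61 to 17.2 and 6.76 to 21.5 RPKM. PLIN1 and PLIN4 lay between 0.32 and 2.84 RPKM. ADRB3 was listed at 0 in all libraries but low replicate 1, and RETN did not exceed 0.26 RPKM, while ADIPOQ, LEP and FABP4 are not analysed here. High replicates 1 and 5 carried the gene GFAP at 3.66 and 4.22 RPKM, against at most 0.35 RPKM in the other 8 libraries. High replicates 1 and 3 and low replicate 2 stood apart from the rest on the leading principal component of all tested genes, scoring 28.6, 37.2 and 32.6. The opposite end was held by low replicate 4 with -40.5, where the other 6 libraries had -18.2 to 0.945.

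The 8 genes differed widely in level, and together they were a small part of the liver message pool. Their summed level was 51.5 to 127.9 RPKM per library, which was 0.00921% to 0.0226% of all RPKM. MLXIPL (ENSSSCG00000007710), the transcription factor, was the highest with a mean of 36.4 RPKM over the 10 libraries, above 87.6% of the tested genes. GPAM followed with 11.9, ACACA with 7.88, ACSS2 with 6.33, ACLY with 5.19, SCD with 3.61, FASN with 2.90 and ME1 with 0.428 RPKM. FASN, the enzyme that gives the pathway its name, lay above only 26.9% of the tested genes, whose median level was 6.10 RPKM. Of the 7 steps in this order, MLXIPL over GPAM and FASN over ME1 held in 10 of 10 libraries and passed an exact two-sided sign-flip test on log2(RPKM + 1) (exact permutation p = 0.00195, adjusted p = 0.00684 over the 7 steps). The 5 steps between GPAM and FASN held in 6 to 8 of 10 libraries and did not pass (adjusted p = 0.114 to 0.373), so those neighbours did not differ beyond their spread. The order was taken from the same values that were tested, so these p-values are no independent check of it.

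**Figure D1:**
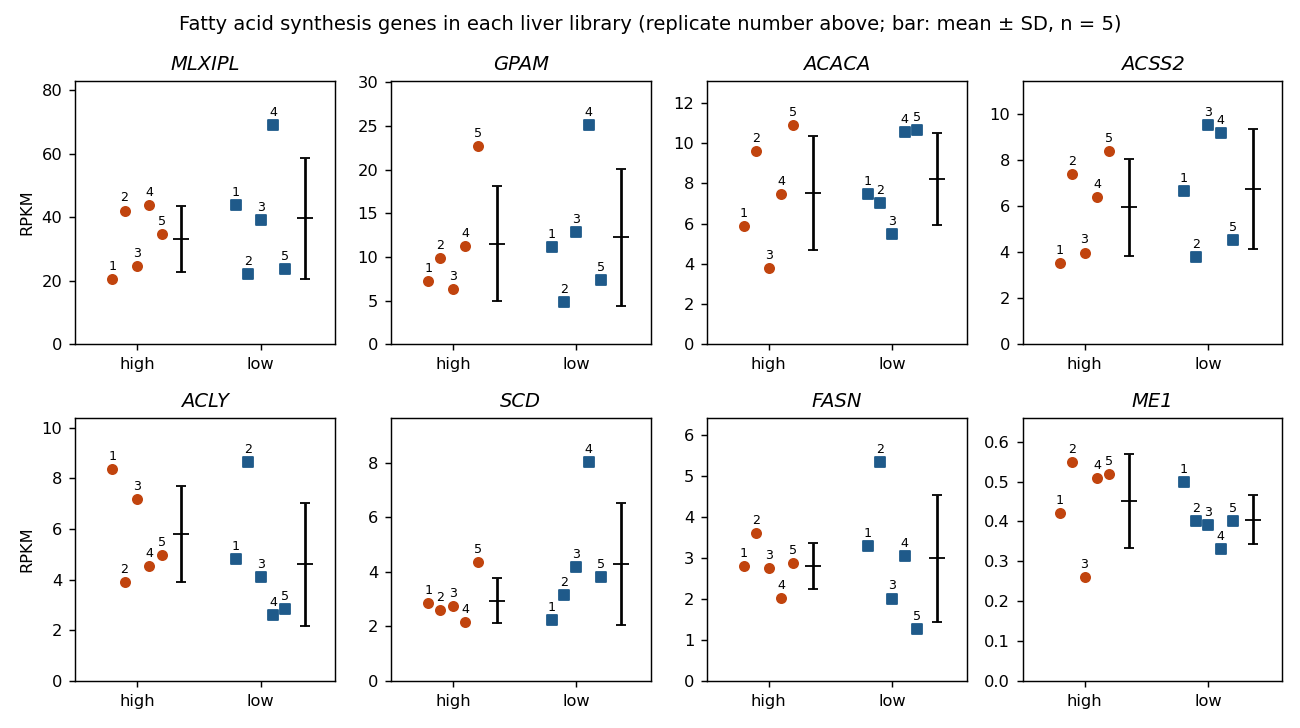
RPKM of each gene in each of the 10 liver libraries, in order of mean level, with high on the left and low on the right of each panel, the replicate number above each point and the mean ± SD of 5 libraries beside the points. In all 8 panels the groups overlap, and low replicate 4 is the highest library for MLXIPL (69.1 RPKM), GPAM (25.1 RPKM) and SCD (8.04 RPKM).

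The comparison of high with low asked whether livers of pigs that diverge in growth and fatness differ in these messages. No member passed the test, and in none of the 8 did the values of the groups separate. The adjusted p of limma was under 0.05 for 0 of the 7 tested members, against 0% of the tested genes. An unadjusted p under 0.05 was reached by 0 of the 7 members, where 4.55% of the tested genes (497 of 10931) reached it. Groups without overlap occurred in 0 of the 8 members and in 0.805% of the tested genes. The mean log2(RPKM + 1) was higher in high for 2 of the 7 tested members, against 48.8% of all tested genes, and the median difference was -0.14 for the members and -0.0049 for all tested genes. In bulk tissue, fewer cells of a type and less RNA per cell cannot be told apart.

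The enzymes that supply acetyl-CoA were highest in different libraries. ACLY (ENSSSCG00000017421), which splits citrate exported from mitochondria, had 8.35, 3.89, 7.19, 4.54 and 4.96 RPKM in the high libraries in the order of their replicate numbers, against 4.80, 8.66, 4.09, 2.61 and 2.83 RPKM in the low libraries. Its highest libraries were low replicate 2 and high replicates 1 and 3, and its lowest were low replicates 4 and 5, so the groups overlapped. The means were 5.79 ± 1.90 RPKM in high and 4.60 ± 2.44 RPKM in low (SD, n = 5 each). The log2 difference, high minus low, was 0.33 (SE 0.27, 95% interval -0.27 to 0.93, adjusted p = 0.961 in limma), with an exact two-sided permutation p of 0.341, where the smallest p that 5 against 5 libraries allow is 0.00794. Without low replicate 2 the difference was 0.55 (unadjusted p = 0.0304 and adjusted p = 0.643 in limma). It was 0.20 without high replicate 1, 0.20 without low replicate 4 and 0.22 without low replicate 5.

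ACSS2 (ENSSSCG00000007286), which makes acetyl-CoA from acetate in the cytosol and nucleus, had 3.53, 7.38, 3.98, 6.39 and 8.40 RPKM in high, against 6.65, 3.80, 9.52, 9.16 and 4.53 RPKM in low. It was lowest in high replicate 1, low replicate 2 and high replicate 3, the libraries in which ACLY was highest. The log2 difference was -0.14 (SE 0.27, 95% interval -0.74 to 0.45, adjusted p = 0.979 in limma), and leaving out 1 library gave -0.30 (without low replicate 2) to -0.0058 (without high replicate 1). ACLY exceeded ACSS2 in these 3 libraries and in none of the other 7. The ratio of ACLY to ACSS2, chosen after the values were seen, was 2.37, 0.527, 1.81, 0.710 and 0.590 in high and 0.722, 2.28, 0.430, 0.285 and 0.625 in low, an 8.30-fold range. The ratio did not separate the groups (exact permutation p = 0.413).

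**Figure D2:**
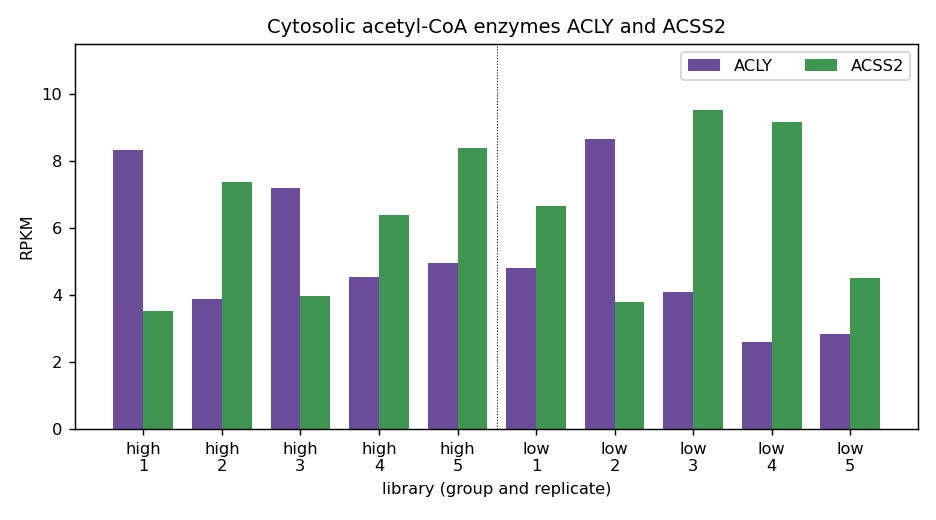
RPKM of ACLY (purple) and ACSS2 (green) in each library, with the 5 high libraries on the left and the 5 low libraries on the right of the dotted line. In high replicate 1, high replicate 3 and low replicate 2 ACLY stands above ACSS2, and in the other 7 libraries below it.

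ME1 (ENSSSCG00000004454), the cytosolic malic enzyme, was the lowest of the members, with 0.42, 0.55, 0.26, 0.51 and 0.52 RPKM in high, against 0.50, 0.40, 0.39, 0.33 and 0.40 RPKM in low. All 10 libraries stayed under 1 RPKM, and the highest was 2.12 times the lowest. On the log2(RPKM + 1) scale, which understates the change of such low values, the difference was 0.046 with an exact permutation p of 0.460. Without high replicate 3, its lowest library, the difference was 0.096 and the unadjusted exact permutation p was 0.0476. Leaving out any other single library gave an exact permutation p of 0.325 to 0.754.

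ACACA and FASN, which carry out the committed step and the chain building, showed no shared pattern. ACACA (ENSSSCG00000017694) had 5.87, 9.59, 3.81, 7.46 and 10.9 RPKM in high, against 7.48, 7.02, 5.48, 10.6 and 10.7 RPKM in low. The lowest value was in high replicate 3 and the highest in high replicate 5, so the high group spanned the whole range. Its log2 difference was -0.15 (SE 0.25, 95% interval -0.70 to 0.40, adjusted p = 0.975 in limma), and it was 0.038 without high replicate 3. FASN (ENSSSCG00000029944) had 2.80, 3.60, 2.75, 2.02 and 2.87 RPKM in high, against 3.30, 5.35, 2.01, 3.05 and 1.26 RPKM in low. Both its highest library, replicate 2, and its lowest, replicate 5, belonged to the low group, while the high group kept within 2.02 to 3.60 RPKM. The log2 difference of FASN was 0.0053 (SE 0.24, 95% interval -0.52 to 0.53, adjusted p = 0.999 in limma), and its sign turned without high replicate 2 (-0.066), high replicate 5 (-0.0038), low replicate 3 (-0.075) or low replicate 5 (-0.18).

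SCD (ENSSSCG00000010554), the desaturase that makes oleic acid, had 2.84, 2.61, 2.74, 2.16 and 4.36 RPKM in high, against 2.22, 3.14, 4.19, 8.04 and 3.82 RPKM in low. All low libraries but replicate 1 lay above 4 of the 5 high ones, low replicate 4 lay furthest out, and the groups overlapped. The means were 2.94 ± 0.834 RPKM in high and 4.28 ± 2.23 RPKM in low (SD, n = 5 each). SCD had the smallest p of the members, with a log2 difference of -0.36 (SE 0.25, 95% interval -0.90 to 0.18, adjusted p = 0.961 in limma, exact permutation p = 0.254). Without low replicate 4 the difference was -0.14. As a ratio of high to low on that scale, the interval ran from 0.537 to 1.14.

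GPAM (ENSSSCG00000010631), the mitochondrial acyltransferase that begins glycerolipid synthesis, varied most of the members. It had 7.19, 9.89, 6.34, 11.3 and 22.7 RPKM in high, against 11.1, 4.78, 12.8, 25.1 and 7.35 RPKM in low. High replicate 5 and low replicate 4 were far above the rest, 1 in each group. The highest library had 5.25 times the lowest, and the coefficient of variation over all libraries, 57.7%, was above that of 95.7% of the tested genes. Its log2 difference was -0.029 (SE 0.41, 95% interval -0.92 to 0.86, adjusted p = 0.999 in limma). The sign turned without high replicate 1 (0.089), high replicate 3 (0.13), low replicate 3 (0.033) or low replicate 4 (0.26).

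MLXIPL had 20.5, 42.1, 24.7, 44.0 and 34.6 RPKM in high, against 44.0, 22.1, 39.2, 69.1 and 23.8 RPKM in low. The 4 lowest libraries were split evenly between the groups, and the highest was low replicate 4. The log2 difference was -0.19 (SE 0.32, 95% interval -0.88 to 0.51, adjusted p = 0.975 in limma), and it was 0.042 without low replicate 4. All 7 tested members varied more between libraries than the median tested gene, whose coefficient of variation was 22.3%, with values of 31.2% for ACACA to 57.7% for GPAM. The authors' deposited table gave none of the 8 members a p under 0.05, against 5% of the genes tested here. The smallest p in the authors' deposited table was 0.21, for ME1, with a fold of -1.18. SCD had a fold of 1.48 with a p of 0.25 in the authors' deposited table (a positive fold there stands beside the higher mean RPKM in low for each of the 8 members).

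**Figure D3:**
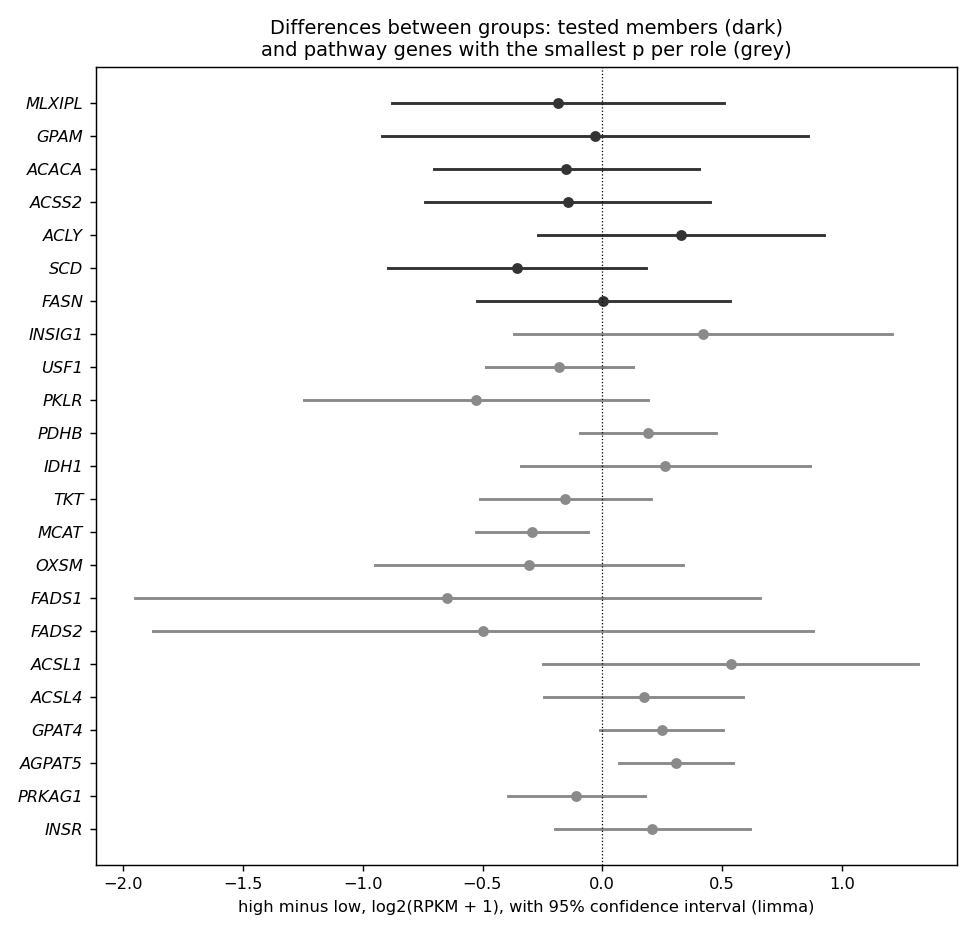
Difference in mean log2(RPKM + 1), high minus low, with its 95% confidence interval from limma, for the 7 tested members (dark) and for genes with the smallest p in each role of the wider pathway, up to 2 per role (grey). The intervals of all 7 members cross 0, and of the pathway genes shown only those of AGPAT5 (0.31) and MCAT (-0.29) do not, before adjustment.

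A list of 81 other genes of the pathway was read in the same fit. Of these, 58 were matched by name and 55 were tested, and 0 passed in either direction in limma. An unadjusted p under 0.05 was reached by 2 of the 55, where 4.55% of the tested genes reached it. The mean was higher in high for 29 and higher in low for 26, and the median log2 difference was 0.0085, beside -0.0049 for all tested genes. No pathway gene had groups without overlap.

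The regulators upstream of the members gave differences from -0.18 to 0.42. Of the 11 tested, 5 had the higher mean in high and 6 in low. MLX, the partner with which MLXIPL binds DNA, had 24.4 ± 1.30 RPKM in high and 24.0 ± 3.59 RPKM in low (SD, n = 5 each). Its relative MLXIP, which also pairs with MLX, had 1.91 ± 0.733 and 1.70 ± 0.524 RPKM in high and low. NR1H3, the liver X receptor alpha, which induces lipogenic genes, had 69.4 ± 3.69 RPKM in high and 74.2 ± 9.97 RPKM in low, and NR1H2, its relative, had 20.2 ± 5.17 RPKM in high and 19.9 ± 4.24 RPKM in low.

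INSIG1, which retains the sterol sensor SCAP and its cargo when sterols are plentiful, was the most abundant of the regulators, with 101 ± 36.2 RPKM in high and 77.6 ± 38.2 RPKM in low. SREBF2, a transcription factor carried by SCAP as an inactive precursor, had 12.2 ± 2.90 and 12.5 ± 1.65 RPKM in high and low, SCAP had 10.6 ± 1.31 and 11.6 ± 2.86 RPKM, and the protease MBTPS1 had 17.7 ± 2.41 and 17.8 ± 2.70 RPKM. The E-box factors USF1 and USF2 had 15.3 ± 1.39 and 42.4 ± 4.54 RPKM in high, against 17.7 ± 3.48 and 40.3 ± 6.81 RPKM in low. MID1IP1, which promotes polymerization of acetyl-CoA carboxylase, had 2.01 ± 0.458 RPKM in high and 2.19 ± 0.553 RPKM in low. SREBF1, THRSP and ACACB are not analysed here.

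In glucose entry and glycolysis 4 of 5 genes had the higher mean in low. PKLR, the liver pyruvate kinase and a known target of MLXIPL, had 8.92 ± 4.11 RPKM in high and 12.9 ± 5.06 RPKM in low. Of the genes of citrate and acetyl-CoA supply, 4 of 6 had the higher mean in high, among them PDHB, a subunit of pyruvate dehydrogenase, with 50.9 ± 7.30 RPKM in high and 44.4 ± 5.48 RPKM in low. Of the genes that supply NADPH, 4 of 7 had the higher mean in high, among them IDH1 with 136 ± 26.5 RPKM in high and 119 ± 44.5 RPKM in low, while TKT had 27.0 ± 3.79 and 30.5 ± 6.35 RPKM.

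In mitochondrial fatty acid synthesis, MCAT, the malonyl transferase, had 3.18 ± 0.266 RPKM in high and 4.14 ± 0.570 RPKM in low, a log2 difference of -0.29 (unadjusted p = 0.0181 and adjusted p = 0.961 in limma), and OXSM had 7.46 ± 3.52 and 9.12 ± 3.24 RPKM. In glycerolipid synthesis 7 of 9 genes had the higher mean in high. AGPAT5, an acyltransferase of the step after GPAM, had 7.46 ± 0.814 RPKM in high and 5.83 ± 0.690 RPKM in low (log2 difference 0.31, unadjusted p = 0.0158 and adjusted p = 0.961 in limma). GPAT4, which catalyses the same reaction as GPAM outside mitochondria, had 55.8 ± 6.95 RPKM in high and 46.6 ± 3.80 RPKM in low. ACSL1, which activates fatty acids to acyl-CoA, had 1250 ± 427 RPKM in high and 924 ± 433 RPKM in low, and ACSL4 had 7.55 ± 2.21 and 6.44 ± 1.16 RPKM.

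The desaturases of polyunsaturated fatty acids varied widely within low, with FADS1 at 5.13 ± 2.04 RPKM in high and 12.3 ± 12.4 RPKM in low, and FADS2 at 14.2 ± 9.05 and 23.8 ± 22.1 RPKM. Both had their highest value in low replicate 4, the library with the highest SCD. Among the genes of kinase and insulin control, the insulin receptor gene INSR had 6.33 ± 1.82 RPKM in high and 5.27 ± 1.14 RPKM in low, and PRKAG1, a subunit of AMP-activated kinase, had 15.9 ± 2.27 and 17.2 ± 2.33 RPKM.

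Across the 10 libraries the members did not vary as 1 block. MLXIPL, GPAM and ACSS2 varied together, ACLY had negative correlations with most members that did not pass adjustment, and FASN had correlations near 0 with all but ACLY. Pearson correlations of log2(RPKM + 1) were computed for the 28 pairs of members, of which 16 were positive and 12 negative, and 3 passed a permutation test with 100000 resamples adjusted over the 28 pairs. These were ACSS2 with GPAM (r = 0.87, p = 0.00085, adjusted p = 0.0238), ACSS2 with MLXIPL (r = 0.86, p = 0.00263, adjusted p = 0.0368) and GPAM with MLXIPL (r = 0.80, p = 0.00456, adjusted p = 0.0426), all by permutation. Spearman's rho was 0.88, 0.71 and 0.75 for these pairs, and ACSS2 with GPAM alone passed by rank (permutation p = 0.00177, adjusted p = 0.0496).

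Of all pairs of tested genes, 0.867% had an r at or above that of ACSS2 with GPAM and 2.59% had one at or above that of GPAM with MLXIPL. All genes of a library share its depth and its place on the first component. Leaving out the 2 libraries furthest from the median of the gene named first gave r = 0.83, 0.76 and 0.88 (exact permutation p = 0.0143, 0.0285 and 0.0173). Within the 7 libraries without high replicates 1 and 3 and low replicate 2, a choice made after seeing the data, r was 0.76, 0.66 and 0.62 and none of the 28 pairs passed (smallest adjusted p = 0.441 by exact permutation). No pair passed without any one of high replicates 1, 3 and 4 and low replicates 1, 2 and 4, 1 passed without high replicate 2, and 5 passed without low replicate 5. Over these leave-outs of a single library the 3 correlations stayed between 0.68 and 0.93. Centred on the group means they were 0.88, 0.86 and 0.81.

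ACLY had negative correlations with 6 of the other 7 members. With MLXIPL r was -0.69 (permutation p = 0.0295, adjusted p = 0.195), with ACSS2 -0.68 (permutation p = 0.0360, adjusted p = 0.195) and with ACACA -0.65 (permutation p = 0.0418, adjusted p = 0.195), and none passed. With ACLY's 2 furthest libraries, low replicate 2 and high replicate 1, left out, r was -0.43 with MLXIPL and -0.37 with ACSS2. With ACACA it was -0.73 (exact permutation p = 0.0430). Leaving out ACLY's furthest values also narrows its range, so a weaker r does not show that a relation rests on those libraries. Without high replicate 1 alone r was -0.60 with MLXIPL and -0.59 with ACSS2. Without low replicate 2 alone it was -0.62 and -0.60, and none of these passed. Within the 7 libraries without high replicates 1 and 3 and low replicate 2, again chosen after seeing the data, r was -0.11 with MLXIPL and 0.16 with ACSS2 (exact permutation p = 0.781 and 0.733). With ACACA it was -0.42 there (exact permutation p = 0.335). ACLY has a narrower range in these 7 libraries. Whether its negative relations hold apart from the libraries left out is therefore not shown. Without low replicate 5, a library low in both ACLY and MLXIPL, the r of ACLY with MLXIPL was -0.97 (adjusted p = 0.0081 by exact permutation). With median-ratio scaling, ACLY with MLXIPL (-0.82) and with ACSS2 (-0.81) passed as well (adjusted p = 0.0300 each by permutation).

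FASN had correlations between -0.15 and 0.082 with 6 of the other members and 0.53 with ACLY (permutation p = 0.113, adjusted p = 0.287). Its r with ACACA, whose product it uses, was -0.073 (permutation p = 0.843), and with MLXIPL it was -0.0058 (permutation p = 0.988). Of all pairs of tested genes, 63.8% had an r at or above that of FASN with ACACA.

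**Figure D4:**
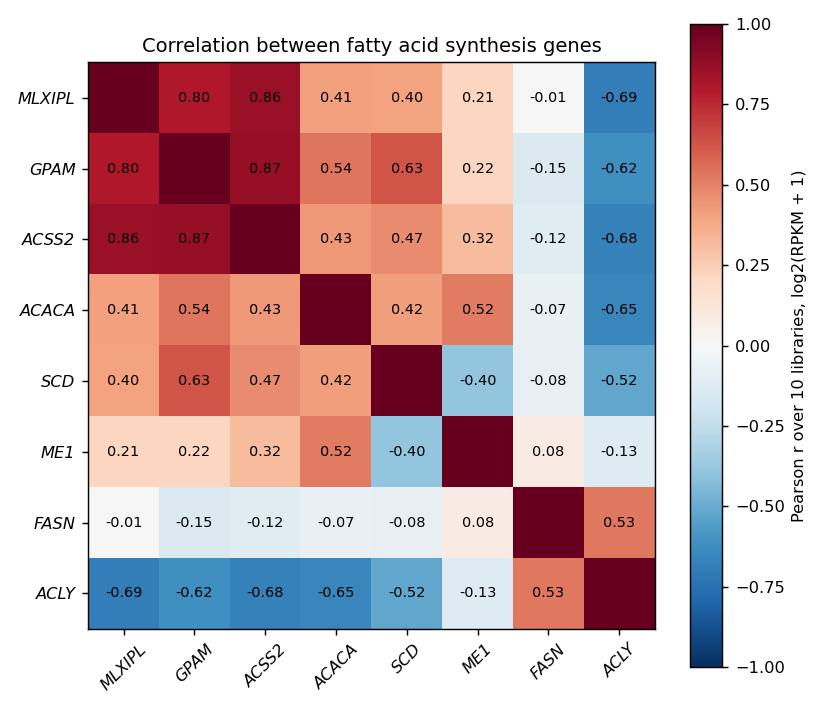
Pearson r of log2(RPKM + 1) over the 10 libraries for each pair of the 8 genes, on a colour scale from -1 (blue) to 1 (red). MLXIPL, GPAM and ACSS2 form a red corner with 0.80 to 0.87, the ACLY row is blue apart from FASN (0.53), and the FASN row is close to 0 elsewhere.

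The same contrast appeared along the first principal component, which held 42.9% of the variance of the tested genes. ACLY was higher toward the end held by high replicates 1 and 3 and low replicate 2 (r = 0.92, rho = 0.84, permutation p = 0.00061, adjusted p = 0.0390 over 64 relations of members with this component and with cell type levels). MLXIPL was lower toward that end (r = -0.84, rho = -0.75, permutation p = 0.00232, adjusted p = 0.0495). By rank neither passed (adjusted p = 0.163 and 0.365). An absolute r at least as large as that of ACLY was found in 4.14% of the tested genes, and for MLXIPL in 13.1%. Without the 2 furthest libraries, high replicate 3 and low replicate 2, r was 0.88 for ACLY and -0.81 for MLXIPL (exact permutation p = 0.0108 and 0.0248). Without high replicates 1 and 3 and low replicate 2 it was 0.69 and -0.65 (exact permutation p = 0.0782 and 0.136), and with low replicate 4 left out as well it was 0.30 and -0.013 over 6 libraries (exact permutation p = 0.585 and 0.988). These 6 libraries cover a narrow part of the range of scores. Whether the relations hold apart from the 4 libraries at the ends is therefore not shown.

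ACSS2, ACACA and GPAM had r of -0.76, -0.76 and -0.74 with the component and did not pass (adjusted p = 0.123, 0.119 and 0.123 by permutation). Over the same 6 libraries it was 0.59, -0.49 and 0.52 (exact permutation p = 0.218, 0.314 and 0.293). For FASN r with the component was 0.30, for SCD -0.45 and for ME1 -0.36. Without low replicate 4 it was 0.43 for FASN, 0.014 for SCD and -0.75 for ME1 (exact permutation p = 0.258, 0.968 and 0.0168, unadjusted). Without high replicates 1 and 3 and low replicate 2 it was 0.41 for ME1. Of the cell type levels, ACACA was lower where the mean level of the 4 matched of 6 cholangiocyte markers was higher (r = -0.84, rho = -0.83, permutation p = 0.00228, adjusted p = 0.0495). By rank this did not pass (adjusted p = 0.163), and without the 2 furthest libraries r was -0.68 (exact permutation p = 0.0603). Without high replicates 1 and 3 and low replicate 2 it was -0.90 (exact permutation p = 0.00536). The summed level of these markers was 8.35 to 17.2 RPKM in high and 8.51 to 20.7 RPKM in low. SPP1 was the largest part of it in every library, while EPCAM, SOX9 and CFTR lay between 0.26 and 3.58 RPKM. In high replicate 5, the library highest in ACACA, EPCAM, SOX9 and CFTR were lower than in high replicate 1, but SPP1 was higher. SPP1 was also high, at 11.2 RPKM, in high replicate 3, the library lowest in ACACA. Single markers were not tested against ACACA. No matched marker was at 0 in every library, and KRT7 and KRT19 are not analysed here. The part of these markers in the ACACA values was not tested. With the mean level of the 11 hepatocyte markers r was -0.81 for ACLY (rho = -0.72, permutation p = 0.00509, adjusted p = 0.0814) and 0.77 for ACACA (rho = 0.70, permutation p = 0.00849, adjusted p = 0.109). Neither passed, and the part of this level in either gene was not tested. The hepatocyte markers did not move together, so their mean is not a measure of hepatocyte content. ALB had 23864 RPKM in high replicate 3 and 43854 RPKM in low replicate 4. FGB had 30170 and 7802 RPKM in the same libraries. No member passed with the adipocyte level, for which r lay between -0.42 and 0.49, and 4 of 5 matched markers of sebaceous or mammary epithelium were listed at 0 in every library.

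**Figure D5:**
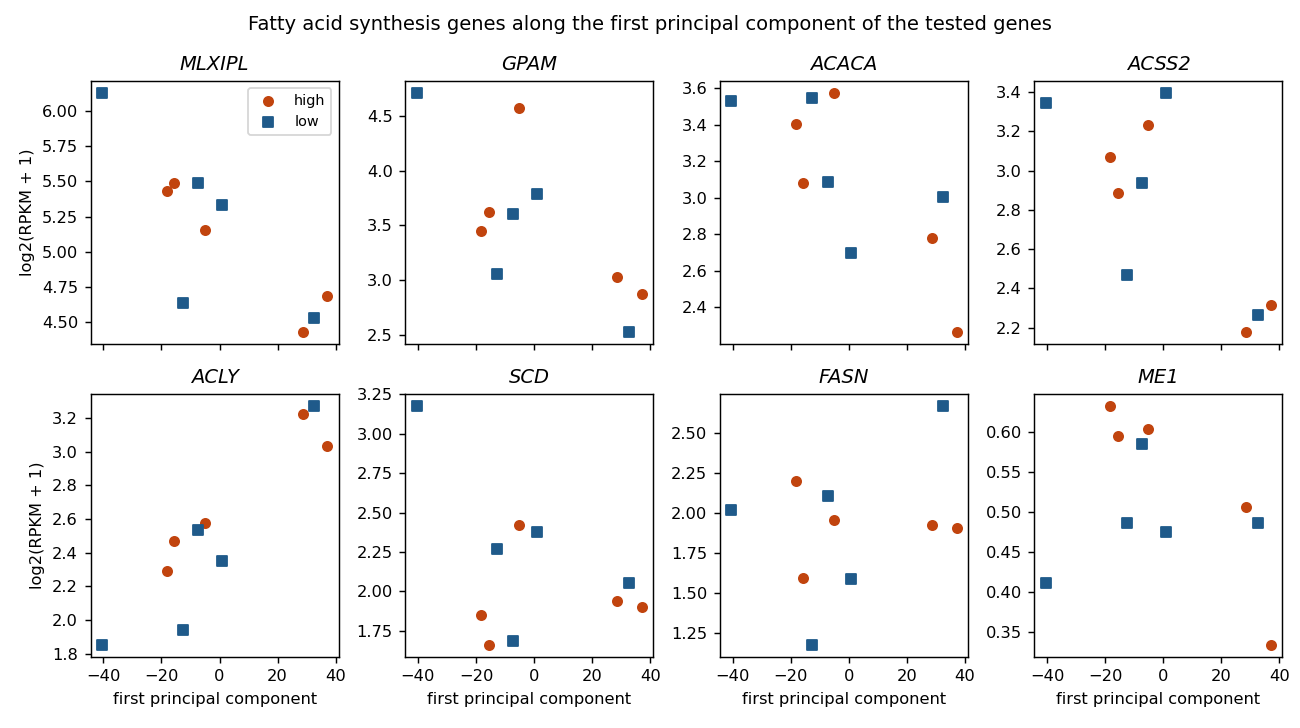
Level of each gene, log2(RPKM + 1), against the library's score on the leading principal component, for high (circles) and low (squares). ACLY rises with the score (r = 0.92) and MLXIPL falls (r = -0.84), while FASN (r = 0.30) and ME1 (r = -0.36) show less order over all 10 libraries. Without low replicate 4 the r of ME1 is -0.75. Both groups are found at the end with high scores, and low replicate 4 alone holds the other end.

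For each tested member the 2 named genes with the most similar values were looked up among 7217 candidates, by Pearson r of log2(RPKM + 1) over 10 libraries, as a description without a test. MLXIPL was closest to the adaptor gene GRB7 (r = 0.98), at 2.66 ± 1.39 RPKM in high and 3.72 ± 3.06 RPKM in low, and to LIMS2 (r = 0.97). ACSS2 was closest to ANKRD28 (r = 0.96) and ASPA (r = 0.96), an enzyme that frees acetate from N-acetylaspartate, at 1.92 ± 1.62 RPKM in high and 2.12 ± 1.43 RPKM in low. GPAM was closest to ATXN2 (r = 0.97), an RNA-binding protein, and HYKK (r = 0.96), the hydroxylysine kinase. ACLY was closest to KCTD10 (r = 0.98) and ZFP91 (r = 0.98), both linked to ubiquitin ligases.

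ACACA was closest to LCLAT1 (r = 0.97), an acyltransferase of cardiolipin remodelling, at 6.81 ± 1.24 RPKM in high and 6.80 ± 0.772 RPKM in low, and to UROS (r = 0.94), of heme synthesis. FASN was closest to SLC35C2 (r = 0.94) and to the gene named HLA-DRA in the table of names (r = 0.92), a chain of the class II histocompatibility molecules, which had its highest value, 151 RPKM, and its lowest, 31.7 RPKM, in the same libraries as FASN. SCD was closest to FDPS (r = 0.89), an enzyme of cholesterol synthesis, with 28.8 ± 9.83 RPKM in high and 42.5 ± 13.8 RPKM in low, and to SPATA24 (r = 0.87). FDPS, like SCD, had its highest value in low replicate 4, 61.9 RPKM.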

How the data were processed

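RNA of 10 liver samples was sequenced from TruSeq libraries in paired reads, per the labels' protocols, on the Sscrofa10.2 build, per the submitters' processing notes. No aligner, counter or annotation release is given in the sources used here. No strand information was used here, so overlapping antisense genes may not be told apart. The authors deposited 1 table of RPKM values per gene and library, with a signed fold change and a p-value per gene whose test is not stated, per the file headers. In it 624 large RPKM values carried a dot as digit-group mark and were read accordingly.

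Values were analysed as log2(RPKM + 1). Genes averaging 1 RPKM or more were fitted with limma 3.58.1 in R 4.3.3 (eBayes with trend, two-sided, all 10 libraries, no covariates), with Benjamini-Hochberg adjustment over all genes tested and a threshold of 0.05. Single values were compared by exact permutation over all assignments of 5 against 5, and correlations by 100000 permutations, or by exact permutation with fewer than 10 libraries. A marker level is the mean log2(RPKM + 1) of the matched genes. The fit was tested on simulated data. Relative depth came from the commonest ratio of values under 0.01 RPKM between libraries, some on as few as 3 genes. Absolute depth is unknown, so no counting interval is given.

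Of the 25009 identifiers 11779 were paired with a symbol by a supplied table. Coordinates and sequences were not used here. Named genes were all members, the 2 pathway genes per role with the smallest p, all tested regulators, and the 2 genes most like each tested member, apart from a few results that are not reported here. The members and lists were chosen with earlier results of these data known. Replicate numbers were given in the order of the samples and pair nothing. The alternatives were other pseudocounts, filters and scalings, library weights and leaving out libraries.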

Additional observations from a re-analysis of the deposited data

How the results depend on the processing

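No paired analysis was possible because the labels give the samples no shared replicate numbers. Over 20 alternatives (pseudocount 0.1 or 0.01, no filter or a mean of 5 RPKM, 3 other scalings, no trend, library weights, each library left out, and high replicates 1 and 5 left out together) the count of genes past the threshold was 0 in limma throughout, with a smallest adjusted p of 0.226. An unadjusted limma p under 0.05 was reached by 199 (without high replicates 1 and 5) to 864 (library weights) of 10931 genes. Without a filter 912 of 18768 genes reached it, and with a mean of 5 RPKM 266 of 6124. Of the pathway genes 0 passed under any of the alternatives, and 21 to 31 of the 55 had the higher mean in high, or 32 of 58 without a filter and 23 of 41 with a mean of 5 RPKM. Log2 differences of ACLY (0.16 to 0.55), ACSS2 (-0.30 to -0.0058) and SCD (-0.51 to -0.14) kept their sign. For ME1 it was 0.021 to 0.12, and leaving out 1 library gave 0.021 to 0.096. The highest, without high replicate 3, had an unadjusted exact permutation p of 0.0476, and the other leave-outs had 0.325 to 0.754. Signs turned with library quality weights for ACACA (0.087), FASN (-0.027) and MLXIPL (0.038), and for FASN without high replicates 1 and 5 (-0.0100). Leaving out 1 library gave -0.29 to 0.038 for ACACA, -0.18 to 0.19 for FASN, -0.29 to 0.26 for GPAM and -0.36 to 0.042 for MLXIPL. The cause of these turns was not tested. The count of member pairs past the threshold, 3 with all libraries, was 1 by Spearman's rho, 5 with median-ratio scaling, 0 to 5 with 1 library left out and 0 without high replicates 1 and 3 and low replicate 2. No scaling moved the median difference of all tested genes by over 0.1. With 5 libraries a group and 95% intervals as wide as those given, small differences were not detectable, and larger ones within the intervals were not excluded. For GPAM the interval ran from 0.529 to 1.82 as a ratio of high to low on the log2(RPKM + 1) scale.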

Other observations

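Genes of the wider pathway were also set against the members over the 10 libraries, a comparison chosen after the data were seen. MLXIPL ran with SLC25A1, the mitochondrial citrate carrier (r = 0.92, rho = 0.87), with DGAT1, which completes triglycerides (r = 0.92, rho = 0.89), with GPD1, which makes the glycerol backbone (r = 0.84), and with TKT of the pentose phosphate pathway (r = 0.84), and against GPAT3 (r = -0.95, rho = -0.85). None of the 440 relations of 8 members with 55 genes passed after adjustment. The permutation p was 0.00023 for GPAT3 and 0.00026 for DGAT1, with an adjusted p of 0.0572 for both. For SLC25A1 the adjusted p was 0.0660. An absolute r of at least 0.8 with MLXIPL was found in 7 of the 55 pathway genes, or 12.7%, beside 8.59% of all tested genes. For ACLY it was 5 of 55, or 9.09%, beside 16.0% of all tested genes. PKLR had r = 0.73 with MLXIPL and -0.86 with ACLY.

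The ratio of SCD to FASN, also chosen after the values were seen, was 0.725 to 1.52 in high and 0.587 to 3.03 in low, with an exact permutation p of 0.357. The ratio of ACACA to FASN was 1.39 to 3.80 in high and 1.31 to 8.47 in low, with its highest value in low replicate 5, the library lowest in FASN (exact permutation p = 0.698).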
